A study of Mus musculus with 6 samples.

Results

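The genes described here are the immediate early response genes Fos, Fosb, Jun, Junb, Egr1, Nr4a1, Ier2, Ier3, Dusp1 and Zfp36, chosen by name as members of the AP-1, Egr and related rapid-response families. Of these 10 symbols, 9 had a row among the 23225 rows of the deposited count table, and all 9 passed the filter on low counts and were among the 15958 genes tested. Junb is not analysed here. RNA was sequenced from sorted tumour-associated dendritic cells of C57BL/6 mice bearing ID8 tumours, an ovarian cancer model in the peritoneal cavity, at day 23. The XBP1-KO group (3 libraries) came from mice with a conditional knockout that removes XBP1 from CD11c-positive cells, and the WT group (3 libraries) from wild-type mice. Both groups carried tumours. The labels name both ascites and tumours as the source, and they name neither the Cre driver nor the sort gate. Nothing in them ties each RNA sample of a genotype to its own animal, so the p-values reflect the spread over these samples only, which may be technical.

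Immediate early genes are transcribed within minutes of a signal, with no need for protein synthesis first. Kinases of the MAP kinase pathways phosphorylate factors already bound at their promoters, mainly serum response factor (SRF) with its ternary complex partners and CREB. Fos and Jun proteins pair through leucine zippers to form AP-1, Egr1 is a zinc finger activator and Nr4a1 an orphan nuclear receptor. Dusp1 and Zfp36 act as brakes, the first by dephosphorylating MAP kinases and the second by binding AU-rich elements and speeding mRNA decay. In dendritic cells these genes respond to microbial and inflammatory signals, and in many tissues they also respond to the isolation of the cells.

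The promoter stretches below are shown because the windows of Dusp1 and Zfp36 alone among those of the measured genes held a full cAMP response element, a CArG box or an AP-1 site, and because Ier3, added after its values were seen, varied between libraries in its own way. Each is the 250 bases before the RefSeq start, written in the direction of the gene, from build GRCm38.p6, which is not the build of the counts. Capitals mark motif matches.
Dusp1, chr17:26508473-26508722, minus strand: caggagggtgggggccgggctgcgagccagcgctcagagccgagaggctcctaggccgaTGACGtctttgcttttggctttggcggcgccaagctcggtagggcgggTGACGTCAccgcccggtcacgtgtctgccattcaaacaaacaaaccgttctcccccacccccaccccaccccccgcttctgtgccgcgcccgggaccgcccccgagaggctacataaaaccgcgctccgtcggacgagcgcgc
Zfp36, chr7:28379229-28379478, minus strand: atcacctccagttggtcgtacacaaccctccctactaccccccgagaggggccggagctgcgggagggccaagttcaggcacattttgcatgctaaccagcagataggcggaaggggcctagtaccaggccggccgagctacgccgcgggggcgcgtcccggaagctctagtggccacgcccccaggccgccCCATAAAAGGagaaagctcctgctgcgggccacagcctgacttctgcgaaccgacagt
Ier3, chr17:35821463-35821712, plus strand: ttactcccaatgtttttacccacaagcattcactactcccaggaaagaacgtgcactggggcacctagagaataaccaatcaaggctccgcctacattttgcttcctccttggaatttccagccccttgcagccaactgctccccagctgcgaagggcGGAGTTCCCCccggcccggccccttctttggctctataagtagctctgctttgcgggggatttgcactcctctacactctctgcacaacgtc

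Windows were found for 7 of the 9 measured genes, with none for Egr1 and Ier2, and both strands were searched. The Dusp1 window held the full cAMP response element TGACGTCA from 143 to 136 bases before the start, which 1.56% of 32536 promoter windows of the same length hold. The shorter site TGACG, which 17.9% of windows hold, is part of the full element. The Dusp1 window held a further copy of it, apart from the full element, from 191 to 187 bases before the start. The Zfp36 window held a CArG box, the sequence that SRF binds, from 58 to 49 bases before the start, a motif in 1.48% of windows. The Ier3 window held an NF-kB site from 92 to 83 bases before the start, on the minus strand of the gene, a motif in 7.28% of windows. The Fos and Fosb windows also held an NF-kB site, and the shorter site TGACG lay in the Fos, Fosb and Nr4a1 windows. No AP-1 site, TGANTCA, which 6.73% of windows hold, was found in the 7 windows, and the TATA box, TATAAA, was found in Fos, against 12.3% of all windows. Only these patterns within 250 bases were searched, so variants and sites further away were missed. The Jun window, for example, held TGACATCA, which none of the patterns matches. These are matches of letters and not measured binding.

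Totals ran from 27706508 to 31325627 counts in XBP1-KO libraries and from 26946349 to 32709100 counts in WT libraries. The column headers carry no replicate number, so the libraries of a genotype are called a, b and c in column order. XBP1-KO b and WT b stood apart from the other libraries of their genotypes: over genes of at least 20 counts, pairs with a b library had chi-square values per degree of freedom of 53.9 to 74.5, and pairs without one 26.9 in XBP1-KO and 22.5 in WT. The targeted gene Xbp1 had 34.6 ± 5.07 CPM in XBP1-KO and 64.2 ± 14.3 CPM in WT (SD, n = 3 each), an adjusted p of 0.0545. All 12 dendritic cell markers were measured, led by Cd74 and H2-Aa, and their summed level was 73834 to 105660 CPM in XBP1-KO libraries and 79044 to 128772 CPM in WT libraries. Cd74 made up most of each sum, with means of 69900 CPM in XBP1-KO and 84376 CPM in WT. The sums therefore say little of the other markers. Zbtb46, the scarcest of the 12 and named after the values were seen, had 7.39 ± 0.680 CPM in XBP1-KO and 8.66 ± 0.225 CPM in WT. Macrophage and B cell markers, given below, were also present, so these levels do not by themselves identify the cells. Of the 12, 9 lay lower and 3 higher, and edgeR called none. Itgax, the gene of CD11c, had 146 ± 14.2 CPM in XBP1-KO and 103 ± 7.95 CPM in WT. Its adjusted p was 0.106 in edgeR, and DESeq2 called Itgax higher while limma-voom did not. CPM is a gene's count scaled to the library size, here with TMM factors.

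Messages of all 9 measured genes were present in every library. Divided by the length of the longest coding transcript, the levels had the same order in both genotypes, and Zfp36 was first with 172 ± 19.6 CPM per kilobase in XBP1-KO and 189 ± 21.5 in WT (SD, n = 3 each). Fos came next, with 85.6 ± 18.1 CPM per kilobase in XBP1-KO and 68.0 ± 15.3 in WT, and then Ier3, with 38.4 ± 26.3 in XBP1-KO and 42.4 ± 31.9 in WT. Dusp1, Egr1, Ier2 and Jun followed, with means of 22.9, 9.95, 8.26 and 4.58 CPM per kilobase in XBP1-KO and of 12.5, 9.36, 6.81 and 4.05 in WT. Nr4a1 and Fosb were lowest, with 1.52 ± 0.887 and 0.796 ± 0.393 CPM per kilobase in XBP1-KO and 1.82 ± 0.818 and 0.554 ± 0.191 in WT. Neighbours in this order overlapped between libraries for Ier3 and Dusp1, Egr1 and Ier2, and Nr4a1 and Fosb in XBP1-KO, and for Fos and Ier3 in WT.

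The comparison of the genotypes asks whether deletion of XBP1 in CD11c-positive cells altered these genes in tumour dendritic cells. With edgeR's quasi-likelihood test, which gives the adjusted p-values below unless another tool is named, 0 of the 9 genes were called at 0.05, against 0.445% of all genes tested. At an unadjusted p under 0.05 there was 1 gene, Dusp1, against 12.9% of all genes tested. DESeq2 called 1 of the 9, Dusp1, against 2.9% of all genes, and limma-voom 0, against 0.295%. On the log2 scale 6 of the 9 lay above 0, against 56.1% of all genes, and their median was 0.18 beside 0.06 for all genes. A p above the threshold does not show that the genotypes had equal levels.

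Among the AP-1 genes, Fos, the inducible partner of Jun, had 152, 165 and 224 CPM in XBP1-KO (libraries a, b and c, the order kept below) and 112, 176 and 142 CPM in WT. Only XBP1-KO c lay above all WT libraries, and the genotypes overlapped. Fos had a log2 fold change of 0.33 (SE 0.19; adjusted p = 0.490), which was 0.12 without XBP1-KO c and 0.55 without XBP1-KO b and WT b.

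Fosb, a paralog of Fos, was scarce, with 3.62, 1.32 and 4.10 CPM in XBP1-KO and 2.61, 2.41 and 1.27 CPM in WT. Its counts were 39 to 135 in XBP1-KO and 38 to 74 in WT. XBP1-KO a and c lay above all WT libraries, while XBP1-KO b was close to the lowest of them, WT c. On the log2 scale Fosb differed by 0.52 (SE 0.44; adjusted p = 0.653), and with 1 library left out by 0.21 (without XBP1-KO c) to 0.87 (without XBP1-KO b), with 0.26 without WT c.

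Jun, which pairs with Fos proteins or with itself, varied little, with 15.7, 12.9 and 15.3 CPM in XBP1-KO and 11.0, 14.8 and 12.9 CPM in WT. XBP1-KO a and c lay above all WT libraries and XBP1-KO b among them. Its log2 fold change of 0.18 (SE 0.19) had an adjusted p of 0.727, and was 0.07 without WT a and 0.26 without WT b.

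Egr1 had 36.8, 37.9 and 59.1 CPM in XBP1-KO and 41.9, 41.8 and 42.3 CPM in WT. The WT libraries were nearly equal, with an SD of 0.315 CPM, while 2 XBP1-KO libraries lay below them and XBP1-KO c above them. Egr1 had a log2 fold change of 0.09 (SE 0.18; adjusted p = 0.869), and of -0.19 without XBP1-KO c.

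Nr4a1 had 1.65, 6.17 and 3.79 CPM in XBP1-KO and 4.94, 6.58 and 2.44 CPM in WT, from 45 to 183 counts in XBP1-KO and 73 to 186 counts in WT. Library b was highest in both genotypes, and the genotypes overlapped. Between genotypes the log2 fold change of Nr4a1 was -0.26 (SE 0.48; adjusted p = 0.851), and it ran from -0.77 (without XBP1-KO b) to 0.10 (without XBP1-KO a).

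Ier2, a nuclear protein whose message follows growth factor signals, had 12.8, 10.3 and 14.6 CPM in XBP1-KO and 9.96, 9.77 and 11.4 CPM in WT. XBP1-KO a and c lay above all WT libraries and XBP1-KO b did not. Ier2 differed by 0.28 on the log2 scale (SE 0.20; adjusted p = 0.602), by 0.13 without XBP1-KO c and by 0.39 without XBP1-KO b.

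Ier3, an NF-kB target known for its part in cell survival, had 23.9, 77.7 and 28.7 CPM in XBP1-KO and 29.0, 89.5 and 25.4 CPM in WT. In both genotypes library b stood far above the others: the lower of the 2 b libraries was 2.68 times the highest of the other 4. With the factor set at 1.5, 1 of the 9 genes, Ier3 itself, showed this pattern, against 0.777% of all genes tested. The pattern is described from these same values, so this share is a description and no test. The letter b gives column order only and does not pair the 2 libraries. Between genotypes the log2 fold change of Ier3 was -0.14 (SE 0.77; adjusted p = 0.954). Leaving out WT b gave 0.65, leaving out XBP1-KO b gave -0.87 and leaving out both gave -0.06, and 3 of the 13 alternatives turned its direction.

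The phosphatase gene Dusp1, whose promoter with the full cAMP response element is printed above, had 31.5, 37.2 and 68.0 CPM in XBP1-KO and 25.4, 21.3 and 28.1 CPM in WT. It was the only measured member whose genotypes did not overlap, against 19.2% of all genes tested. Its lowest XBP1-KO library lay close to its highest WT library, and XBP1-KO c was far above the other 5. The mean was 45.6 ± 19.6 CPM in XBP1-KO and 24.9 ± 3.40 CPM in WT (SD, n = 3 each), a 1.83-fold difference, with a log2 fold change of 0.87 (SE 0.27). The adjusted p was 0.195 in edgeR, 0.202 in limma-voom and 0.0285 in DESeq2, and over the 13 alternatives it ran from 0.0285 to 0.414. Without XBP1-KO c the difference was 0.44 on the log2 scale (adjusted p = 0.414).

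Zfp36, the most abundant of the 9 per kilobase, had 428, 472 and 537 CPM in XBP1-KO and 458, 552 and 570 CPM in WT. The genotypes overlapped, with XBP1-KO a lowest and WT c highest. Zfp36 had a log2 fold change of -0.14 (SE 0.14; adjusted p = 0.708).

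**Figure D1:**
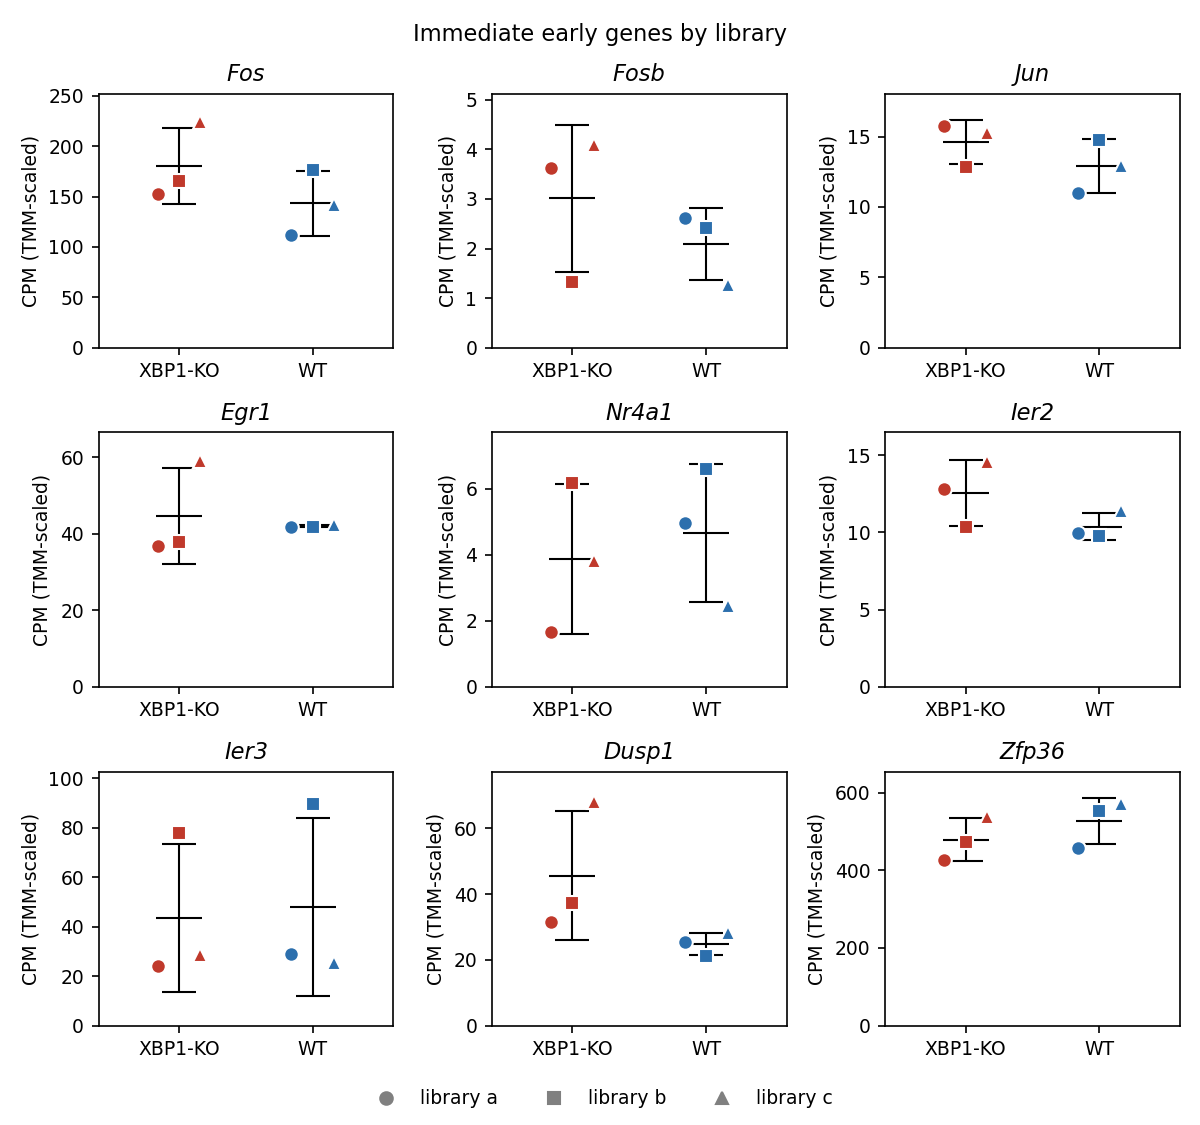
TMM-scaled CPM (vertical axes, from 0) of each measured immediate early gene in the 3 XBP1-KO libraries (red, left) and the 3 WT libraries (blue, right), with the mean and SD in black. The XBP1-KO values of Dusp1 all lie above its WT values, and both b libraries (squares) of Ier3, at 77.7 and 89.5 CPM, lie above the other 4.

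For several genes the same library was highest. XBP1-KO c was the highest of all 6 libraries for 5 of the 9 genes, Fos, Fosb, Egr1, Ier2 and Dusp1, against 17.7% of all genes tested. Jun was highest in XBP1-KO a, Ier3 and Nr4a1 in WT b and Zfp36 in WT c. The highest library was 1.33 times the lowest for Zfp36, 1.43 for Jun, 3.19 for Dusp1, 3.23 for Fosb and 3.74 for Ier3, and more than that for Nr4a1. The genes did not all vary together: in WT b, Ier3 lay 1.40 SDs above its mean over the 6 libraries while Dusp1 lay 1.05 SDs below (-1.05).

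**Figure D2:**
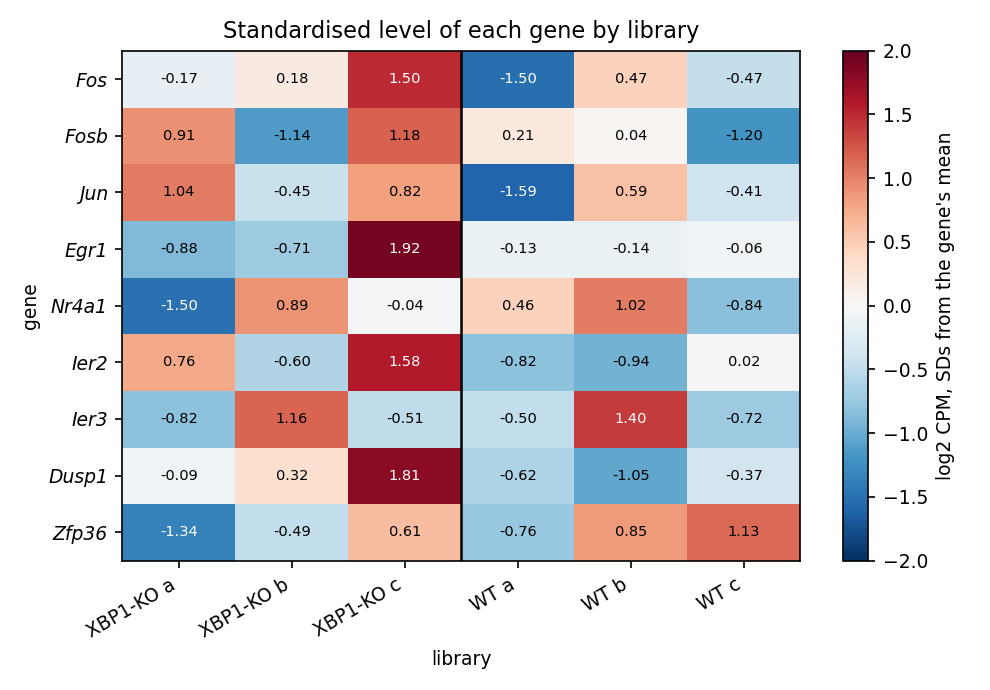
Level of each gene (rows) in each library (columns, XBP1-KO left of the line and WT right), as log2 CPM in SDs from that gene's mean over the 6 libraries; red is above and blue below. XBP1-KO c is highest for 5 of the 9 genes, and Ier3 is highest in XBP1-KO b and WT b, at 1.16 and 1.40.

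**Figure D3:**
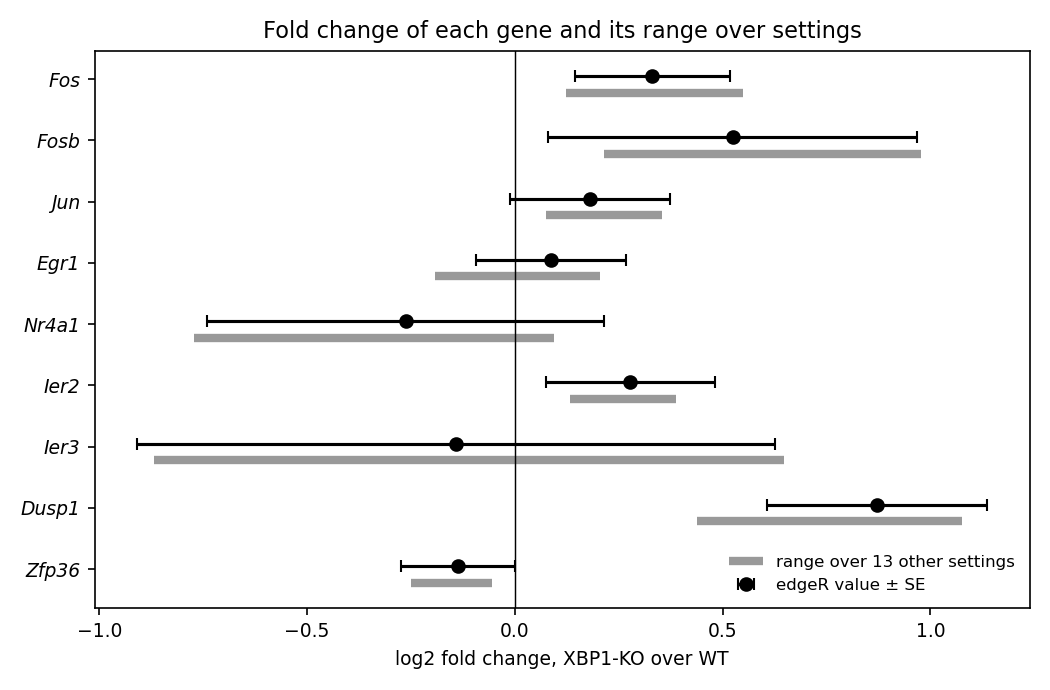
The log2 fold change, XBP1-KO over WT, of each gene (rows) in edgeR with its standard error (black), and the lowest to highest value over the 13 other settings (grey). Dusp1 keeps a value between 0.44 and 1.08, and the grey bars of Egr1, Nr4a1 and Ier3 cross 0.

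Other genes of the response were read from lists that were chosen with earlier results of these data known. With the filter on low counts, edgeR called none in the 8 pathway lists, against 0.445% of all genes tested. Over all genes tested, 12.9% had an unadjusted p under 0.05 and 56.1% lay higher, the shares to set beside the counts of each list. DESeq2 called 2.9% of all genes and limma-voom 0.295%. The other AP-1 and bZIP genes had 11 tested of 12, with 6 higher, 5 lower and 2 at an unadjusted p under 0.05. Fosl2, a Fos paralog, had the smallest p, with 18.2, 23.0 and 25.8 CPM in XBP1-KO and 30.9, 37.8 and 43.5 CPM in WT. Its genotypes did not overlap, as for 4 of the 11 tested genes of this list and 19.2% of all genes tested. Fosl2 differed by -0.74 on the log2 scale (SE 0.18; adjusted p = 0.0896). DESeq2, and edgeR with no filter on low counts, called Fosl2 lower, and limma-voom called none of this list.

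Of 37 other immediate early and early response genes 34 were tested, of which 21 lay higher and 13 lower, with a median of 0.08 and 7 at an unadjusted p under 0.05. Neither DESeq2 nor limma-voom called any. Klf6, a zinc finger factor, had the smallest p, with 257 ± 37.6 CPM in XBP1-KO and 356 ± 29.6 CPM in WT (SD, n = 3 each; adjusted p = 0.153).

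Upstream of the immediate early genes, 12 of 21 MAP kinases and kinases below them lay higher and 9 lower, with a median of 0.07 and 1 gene at an unadjusted p under 0.05. That gene was Rps6ka1, the kinase RSK1, with 160 ± 17.6 CPM in XBP1-KO and 209 ± 20.6 CPM in WT (adjusted p = 0.223), and no tool called a gene of this list. Of 13 genes for SRF, its partners and CREB, 10 lay lower and 3 higher, against 56.1% of all genes higher, with a median of -0.25. At an unadjusted p under 0.05 there were 4, against 12.9% of all genes tested. With library size alone 10 still lay lower and the median was -0.16. Mkl1, a coactivator of SRF, had the smallest p, with 23.2, 21.6 and 27.7 CPM in XBP1-KO and 30.7, 45.6 and 37.5 CPM in WT. All its XBP1-KO values lay below its WT values. Of the 13 genes, 5 did not overlap between genotypes, against 19.2% of all genes tested. Mkl1 had an adjusted p of 0.125, and DESeq2 called it lower while limma-voom called none of the list.

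Among the other dual specificity phosphatases 8 of 10 were tested, with 3 higher, 5 lower, a median of -0.11 and 1 at an unadjusted p under 0.05. This was Dusp2, an immediate early phosphatase of leukocytes, with 3.15 ± 0.224 CPM in XBP1-KO and 1.79 ± 0.474 CPM in WT (adjusted p = 0.327). Of 14 Zfp36 paralogs and mRNA decay genes 12 were tested, with 8 higher and 4 lower in edgeR with TMM, 11 higher and 1 lower with library size alone, and 4 at an unadjusted p under 0.05. Cnot1, the scaffold of the deadenylase complex that the Zfp36 protein recruits, had 93.1 ± 7.86 CPM in XBP1-KO and 131 ± 22.9 CPM in WT (adjusted p = 0.164). DESeq2 and limma-voom called no gene of either list.

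Of 17 mRNAs with AU-rich elements known as Zfp36 targets 16 were tested, with 12 higher, 4 lower, a median of 0.35 and 2 at an unadjusted p under 0.05, and no tool called any. With 1 library left out the median ran from 0.08 (without XBP1-KO b) to 0.84 (without WT b), and it was 0.22 without WT c. Csf2, the cytokine GM-CSF, was scarce and had the smallest p, with 1.02, 0.810 and 1.55 CPM in XBP1-KO and 0.141, 0.212 and 0.234 CPM in WT. Its genotypes did not overlap, as for 4 of the 16 tested genes and 19.2% of all genes tested, and its adjusted p was 0.0938. The chemokine gene Ccl2, named after its values were seen, was the 1 gene of the list whose b libraries were both over 1.5 times every other library, as for Ier3, against 0.777% of all genes tested. It had 330, 1011 and 443 CPM in XBP1-KO and 342, 711 and 320 CPM in WT. Over the other pathway and marker lists 1 gene had this pattern, the tumour epithelial marker Cdh1, also named after its values were seen. Cdh1 had 9.04, 19.5 and 8.86 CPM in XBP1-KO and 7.31, 28.7 and 11.0 CPM in WT.

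**Figure D4:**
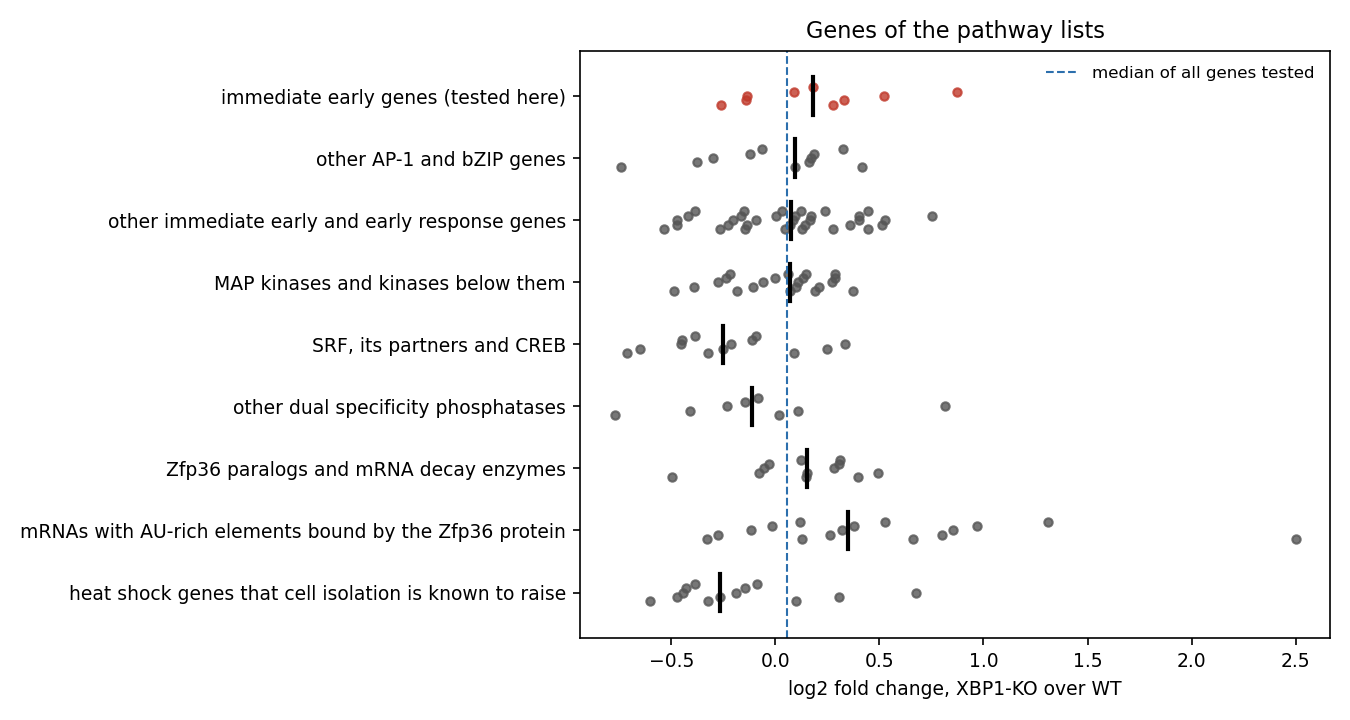
The log2 fold change, XBP1-KO over WT, of each tested gene (points) in the 9 measured immediate early genes (red) and the 8 pathway lists (grey), with list medians (black bars) and the median of all genes tested, 0.06 (dashed line). The lists spread to both sides of the dashed line, and the furthest point, on the right, is Csf2.

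Levels of other cells and of heat shock genes, which cell isolation is known to raise, are given beside these results. These lists too were chosen with earlier results of these data known, so the shares called in them are a description and no test. Of 15 T and NK cell markers edgeR called 5, all higher (Cd3e, Lck, Ncr1, Nkg7 and Ms4a4b), against 0.445% of all genes tested, with a summed level of 329 to 491 CPM in XBP1-KO libraries and 190 to 215 CPM in WT libraries. DESeq2 called 8 of them, against 2.9% of all genes tested, and library size alone 2, against 25 of all 15958 genes. Only Ms4a4b was called without WT a, without WT c or without XBP1-KO a. Of 7 mast cell markers edgeR called 3, all higher (Cpa3, Tpsb2 and Cma1), against the same 0.445%, with sums of 137 to 190 CPM in XBP1-KO and 114 to 179 CPM in WT. The count was 0 when XBP1-KO a, WT b, XBP1-KO c or WT c was left out, and 1, Cma1, without WT a, in limma-voom and with library size alone. The most abundant mast cell marker, Kit, had 56.9, 65.1 and 68.6 CPM in XBP1-KO and 70.4, 140 and 94.9 CPM in WT, a log2 fold change of -0.68 (adjusted p = 0.209), and DESeq2 called it lower. Neutrophil markers, led by Retnlg and S100a8, summed to 344 to 401 CPM in XBP1-KO and 114 to 220 CPM in WT, and B cell markers, led by Cd79b and Ms4a1, to 368 to 522 CPM in XBP1-KO and 149 to 338 CPM in WT. The 6 tested markers of each of these lists all lay higher, against 56.1% of all genes tested. With all libraries, edgeR and limma-voom called none of them, and DESeq2 called 2, the B cell markers Cd79a and Cd79b, against the same 2.9%. Macrophage markers, led by C1qb and Cd68, summed to 5431 to 6344 CPM in XBP1-KO and 4816 to 5982 CPM in WT, and tumour epithelial markers, led by Krt19 and Krt18, to 111 to 171 CPM in XBP1-KO and 131 to 156 CPM in WT. XBP1-KO c, highest for Dusp1, had the highest sum of the 6 libraries for B cell, neutrophil, mast cell and tumour epithelial markers, at 522, 401, 190 and 171 CPM, and the lowest of its genotype for T and NK cell and macrophage markers, at 329 and 5431 CPM. No marker in these lists was at 0 in every library. The part of these cells in the values above was not tested, and fewer cells of a type cannot be told apart from less RNA per cell. Of 13 heat shock genes 10 lay lower, 3 higher and none was called by any tool, with 2 at an unadjusted p under 0.05, against 12.9% of all genes. Their sum was 5380 to 8456 CPM in XBP1-KO and 7965 to 9623 CPM in WT. Hspa8 made up most of each sum, with means of 5161 CPM in XBP1-KO and 6463 CPM in WT, so the sums say little of the other heat shock genes. Hsp90ab1 had the smallest p of the 13, with 988 ± 152 CPM in XBP1-KO and 1342 ± 50.8 CPM in WT (adjusted p = 0.196).

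The genes whose pattern over the 6 libraries was most like the mean standardised level of the 9 were Pms1, Tagap, Vezf1, Runx1, Sertad2 and Dopey2, the 6 highest of 9702 genes with a mean of at least 5 CPM. As a description only, their likeness, Pearson's coefficient over the same 6 libraries, was 0.951 to 0.959. The mean standardised level of the 9 was itself highest in XBP1-KO c, at 0.985, with WT b next at 0.248. That all 6 genes were also highest in XBP1-KO c therefore follows from how they were chosen. Tagap, for example, had 78.8, 79.9 and 99.6 CPM in XBP1-KO and 70.6, 82.8 and 81.1 CPM in WT.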

How the data were processed

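Whole-number counts per gene symbol were deposited by the authors for 6 libraries, and a second table deposited by the authors holds CPM values for 13946 genes. Those CPM values equalled the deposited counts over the library total to within 5.1e-11 and were used only as that check. RSEM, edgeR and build mm9 are named with no role or version, per the submitters' processing notes. The sources used here name no strand setting, aligner or annotation. The test was edgeR 4.0.16 (R 4.3.3) after filterByExpr, with TMM factors, robust glmQLFit and genotype as the only term, two-sided. P-values were Benjamini-Hochberg adjusted over 15958 genes, and genes under 0.05 were called. Standard errors are the fold change over the square root of F. DESeq2 1.42.0 and limma-voom (limma 3.58.1) were alternatives. The edgeR test was tried on simulated counts of 15660 genes, 200 of them changed, with 3 libraries per genotype. It recovered 42% of 2-fold and 99% of 4-fold changes, with 5 false calls. The changed genes had a mean of at least 5 CPM, and every gene had the same biological coefficient of variation, 0.250. These shares therefore do not apply to scarcer genes, such as Fosb and Nr4a1, or to genes that vary more between libraries, such as Ier3.

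The genes and lists were chosen with earlier results of these data known. Named genes are all members, the called genes of each other list or its smallest p, the 2 most abundant markers, and the 6 most similar genes. Libraries of a genotype differed beyond sampling noise, with chi-square per degree of freedom of 22.5 to 74.5. Transcript lengths came from GENCODE M21, and promoters from RefSeq for GRCm38.p6. Precision was limited by variation between libraries (common biological coefficient of variation 0.250), and counting error adds to it for the scarce Fosb, Nr4a1 and Csf2.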

Additional observations from a re-analysis of the deposited data

How the results depend on the processing

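Over 13 alternatives, 110 of 117 fold changes of the 9 genes kept their direction and their side of the threshold, 6 changed sign and 1, Dusp1 in DESeq2, passed at a log2 fold change of 0.86. Sign changes came from leaving out 1 library: Nr4a1 ran from -0.77 (without XBP1-KO b) to 0.10 (without XBP1-KO a) and was 0.05 without WT b, Ier3 ran from -0.87 (without XBP1-KO b) to 0.65 (without WT b) and was 0.15 without XBP1-KO a and 0.07 without XBP1-KO c, and Egr1 ran from -0.19 (without XBP1-KO c) to 0.21 (without XBP1-KO a). The cause was not tested. The median over the 9 genes ran from 0.08 to 0.34. The count of members called was 1 with DESeq2 and 0 under the other 12 alternatives. Over all genes 71 were called (25 higher, 46 lower), against 463 with DESeq2, 252 with no filter on low counts, 47 with limma-voom and 25 with library size alone (13 higher, 12 lower), and between 5 (without WT c) and 154 (without XBP1-KO b) with 1 library left out. With upper quartile scaling 23 were higher and 27 lower. Leaving out XBP1-KO c left 16 calls, XBP1-KO a 13, WT a 38 and WT b 40. No paired analysis was possible because the table's columns carry no replicate number. Fosb and Nr4a1 had the fewest counts of the 9 genes, and their levels also differed widely between libraries of a genotype.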
